A study of Mus musculus with 6 samples.

Results

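The anti-EZH2 and IgG libraries of the Sham group, 2 of the 6 libraries of the series, were compared across protein-coding genes. RNA immunoprecipitation followed by sequencing (RIP-seq) reads the RNAs that an antibody carries down from a lysate, and here anti-EZH2 was set against normal IgG in left ventricles of Sham mice and of mice given angiotensin II (AngII) for 4 h or 24 h. Mice of all groups were male and 10 weeks old. Sham mice were labelled as strain C57BL/6, and the AngII anti-EZH2 libraries carried other strain labels, which are given with the processing below. Sham mice were also labelled as untreated, whereas the study's methods describe saline from an implanted minipump. About 100 mg of ventricle and 500 ng of antibody went into a precipitation, each group had 2 mice, and a library was made from 2 pooled RIP products. Sham therefore had 1 anti-EZH2 library and 1 IgG library, with no replicate on either side, and every ratio below is a description of these 2 libraries with its counting error and without a test. The mRNAs were described by this ratio alone, which does not show on its own that an mRNA was bound by EZH2. The AngII groups served only to show whether a Sham ratio was met again, and each had its own IgG library, so that no library was shared between groups.

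EZH2 is the methyltransferase of Polycomb repressive complex 2 (PRC2), which places the trimethyl mark on lysine 27 of histone H3 together with the core subunits EED and SUZ12. PRC2 is known to bind many RNAs in cells, nascent and mature mRNAs among them, and G-rich stretches are preferred in the test tube. In the heart, EZH2 is needed for development and keeps fetal and hypertrophic genes low.

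Values were in FPKM, which divides the fragments of a gene by transcript length and by library size. The 2 tables listed 46072 genes, of which 21517 were annotated as protein-coding, and 7884 of these were at 0 in both Sham libraries. The 6506 protein-coding genes with a mean of at least 1 FPKM over the 2 libraries were examined. Fragment numbers were inferred from the steps between low FPKM values, which gave about 4338390 mapped fragments for IgG and 5714290 for anti-EZH2. Nuclear protein-coding genes held an estimated 32.9% of the fragments assigned to genes in the IgG library and 43.0% in the anti-EZH2 library, and mitochondrial rRNA an estimated 1074710 and 602629 fragments. The values of 3 rows in IgG and 4 in anti-EZH2 were flagged as holding too much data (HIDATA), and their fragments may be missing here. The AngII 4 h anti-EZH2 library, with 5 such rows, had 0 estimated fragments of mitochondrial rRNA. These shares and rRNA numbers may therefore not be comparable between libraries, which was not tested. A gene examined had a median of 74.1 estimated fragments over both libraries, with quartiles of 39.8 and 152. Fragments are amplified copies, so that the exact 95% intervals of ratios given here cover counting error only. mRNAs of cardiomyocytes were abundant in both libraries, with Tnni3 (troponin I) at 937 FPKM in IgG and 861 in anti-EZH2 and Myh6 (alpha myosin heavy chain) at 678 and 526. Endothelial, fibroblast and leukocyte markers were present too, and in ventricle lysates fewer cells of a type and less RNA per cell cannot be told apart.

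In the separate tables of the 2 libraries, protein-coding mRNAs were on balance lower in anti-EZH2 than in IgG. The median anti-EZH2/IgG ratio was 0.786 (−0.35 on the log2 scale), with quartiles of 0.540 and 1.18, and 34.2% of the genes had a ratio above 1. A ratio above 2 was found for 664 genes (10.2% of those examined) and a ratio below 0.5 for 1432 genes (22%). With the added condition that the exact interval of the ratio excluded 1, 575 genes (8.84%) were called toward anti-EZH2 and 1293 (19.9%) toward IgG. Calls toward anti-EZH2 thus made up 30.8% of all calls. Of the 575, 307 were below 1 FPKM in IgG, and of the 1293, 564 were below 1 FPKM in anti-EZH2. These genes passed the minimum only through the library in which they were high. Dividing every ratio by the median ratio, which centres the genes by construction, gave 873 genes toward anti-EZH2 and 780 toward IgG, or 52.8% toward anti-EZH2. Scaling both libraries to the same FPKM sum over nuclear protein-coding genes gave 775 and 896. A series-wide table of FPKM was also deposited, in which the same genes, where listed, had a median ratio of 0.990, and of the 4163 genes with a mean of at least 1 FPKM there, 531 were above 2 and 524 below 0.5. How the calls were split between the 2 sides therefore depended on the scale and on the table. Below, a gene is called when its undivided ratio passed both conditions, and groups of genes are read against the median of −0.35.

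**Figure D1:**
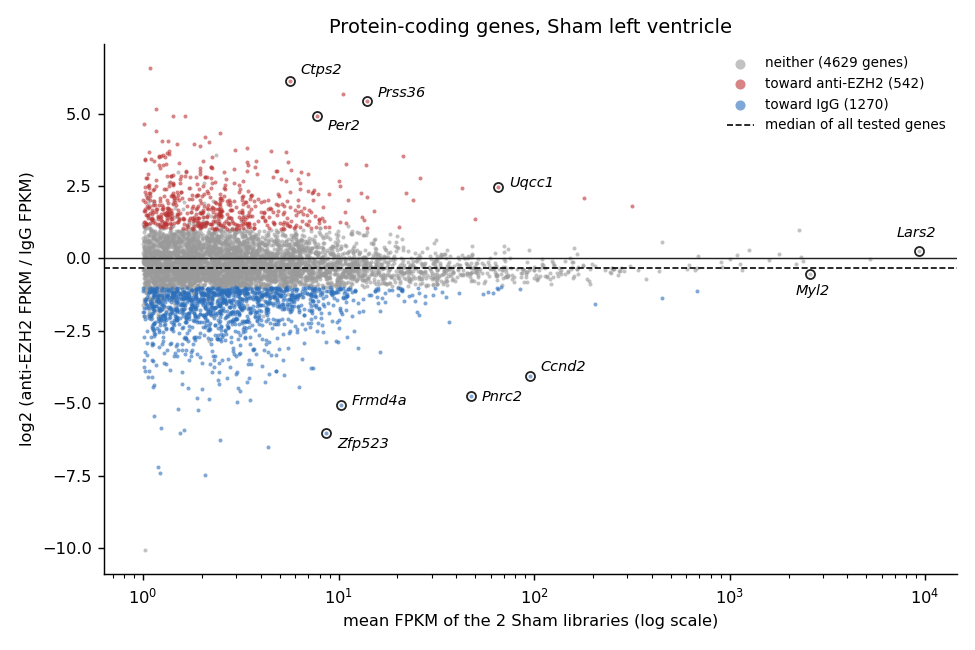
Each point is a protein-coding gene of the Sham group. The horizontal axis gives mean FPKM of both libraries on a log scale and the vertical axis the log2 ratio of anti-EZH2 to IgG FPKM. Red genes were called toward anti-EZH2, blue genes toward IgG and grey genes neither way; 65 genes at 0 in 1 library are not drawn. The dashed line is the median, −0.35, and the cloud narrows toward abundant mRNAs, with Ccnd2 and Uqcc1 standing out among them.

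The ratios were closer together the more fragments a gene had. The spread between genes, as an SD taken from the interquartile range, was 1.09 log2 units for genes of up to 25 fragments, 0.88 between 50 and 100, and 0.37 above 1000. The median counting error over the same bins was 0.75, 0.36 and 0.07 log2 units, so that the measured spread exceeded counting error in each bin. Of the 166 genes above 1000 fragments, 3 were called toward anti-EZH2 (1.81%) and 12 toward IgG (7.23%). Calls also rose with the number of annotated transcripts of a gene, from 5.41% toward anti-EZH2 and 7.79% toward IgG among the 462 genes with 1 transcript to 11.8% and 24.3% among the 1105 genes with more than 10. The part of depth and of transcript number in single ratios was not tested.

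**Figure D2:**
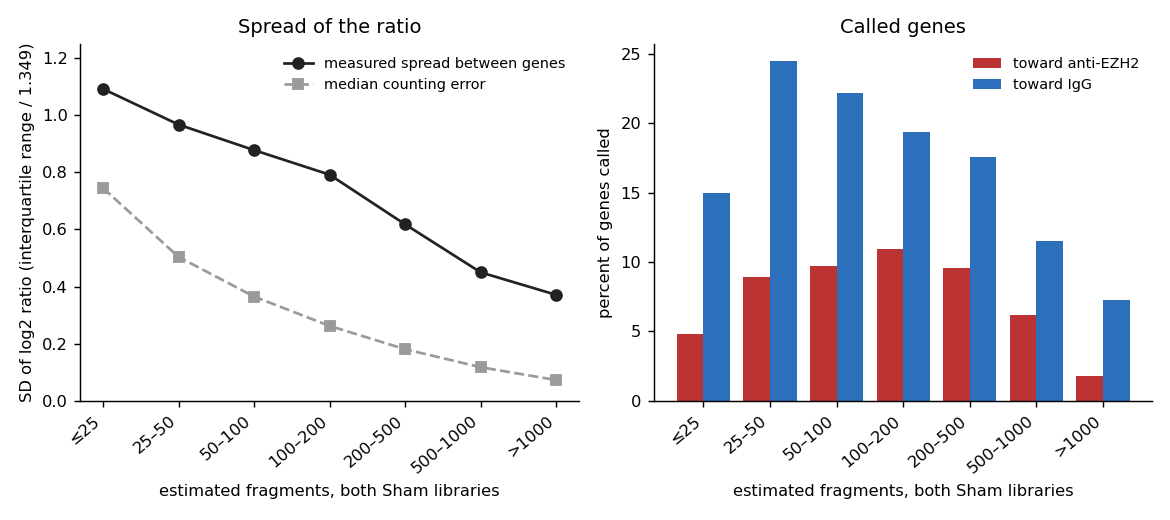
Genes are binned by estimated fragments in both Sham libraries. On the left, the spread of the log2 ratio between genes (circles) falls from 1.09 to 0.37 and stays above the median counting error (squares). On the right, bars give the percent of genes called toward anti-EZH2 (red) and toward IgG (blue), which reach 1.81% and 7.23% above 1000 fragments.

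The mRNAs ranked highest by the lower limit of their interval had little or no signal in IgG and clear signal in anti-EZH2. Prss36, a serine protease, was at 0.626 FPKM in IgG and 27.3 in anti-EZH2, a ratio of 43.5 with an interval from 21.01 to 97.3. Per2, a repressor of the circadian clock (chr1:91415982-91459324, minus strand, 23 exons), stood at 0.492 and 15.01 FPKM, a ratio of 30.5 with an interval from 17.3 to 59.6. Ctps2, a CTP synthase, stood at 0.159 and 11.1 FPKM, a ratio of 69.6 with an interval from 20.7 to 631. These mRNAs were near the floor of detection in IgG. Gm14295, a predicted gene whose coding sequence repeats the zinc finger linker described below, stood at 0.400 and 20.6 FPKM, with a ratio of 51.5 and an interval from 19.9 to 190.

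Another 5 of the 10 were at 0 FPKM in IgG. For these the lower limit of the exact interval is given as the bound. Samd12 (2.27 FPKM in anti-EZH2) was at least 23.1-fold higher. Arntl2, a partner of CLOCK in the circadian clock, was at 6.76 FPKM in anti-EZH2, at least 21.2-fold higher. Swt1, an RNA endonuclease, was at 4.62 FPKM and at least 18.6-fold higher. Arntl2 and Per2 are both clock genes, although the clock list given below, which does not hold Arntl2, lay near the median. E330009J07Rik (2.49 FPKM) was at least 18.8-fold higher and Gm17428 (475 FPKM) at least 13.2-fold. Gm17428 is annotated as 1 exon of 93 nt, and for a transcript so short FPKM rests on the assumed fragment length. The last of the 10, Pakap (0.0227 and 2.15 FPKM, with a lower limit of 12.2), shares exons with Akap2 and Palm2 on the same strand, so its reads could not be assigned with certainty.

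At the other end stood mRNAs that were clear in IgG and nearly lost in anti-EZH2. Ccnd2, which encodes cyclin D2 of the G1 phase, was at 179 FPKM in IgG and 10.7 in anti-EZH2, a ratio of 0.0595 with an interval from 0.0535 to 0.0662 from 5139 fragments. Pnrc2, an adaptor of mRNA decapping, was at 91.8 and 3.42 FPKM, a ratio of 0.0373. Frmd4a, a scaffold of cell polarity, was at 20.02 and 0.595 FPKM, a ratio of 0.0297. These 3 had more than 500 fragments each. Zfp523, a C2H2 zinc finger protein, was at 17.1 and 0.260 FPKM, with a ratio of 0.0152 and an interval from 0.00416 to 0.0401. Ift140 (intraflagellar transport) and Kif5c (a kinesin heavy chain) had ratios of 0.0131 and 0.0165. Glb1l had a ratio of 0.0109 and shares exons with Gm27943. Lbhd1 (4.88 FPKM in IgG), Pik3cd (2.29) and Pianp (4.92) were at 0 in anti-EZH2, and the upper limits of their ratios were 0.0458, 0.0620 and 0.0664. Lbhd1 shares exons with 3 other genes. In the series-wide table of FPKM, Ccnd2 had a ratio of 0.475 and Lbhd1 of 0.466, far nearer to 1, while Pnrc2 stayed at 0.0385, Frmd4a at 0.0319 and Zfp523 at 0.0161.

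Counting error was smallest for genes above 1000 fragments, and all 15 called genes among them are named here (the limit was chosen after their values were seen). The series-wide table gave 3 of the 3 toward anti-EZH2 a ratio above 2, but only 2 of the 12 toward IgG, Ccnd2 and Phf3, a ratio below 0.5. Toward anti-EZH2 were Uqcc1, an assembly factor of respiratory complex III, at 19.95 FPKM in IgG and 111 in anti-EZH2 (ratio 5.55, interval 4.81 to 6.46), Tln1 (talin, which links integrins to actin) at 7.08 and 19.3 (ratio 2.72), and the phosphatase gene Ptp4a1 at 28.2 and 71.7 (ratio 2.55). Ptp4a1 overlaps a second gene model of the same name. In AngII 4 h and 24 h the ratios were 0.309 and 3.72 for Uqcc1, 4.54 and 1.33 for Tln1, and 0.475 and 0.0452 for Ptp4a1. Uqcc1 in AngII 4 h and Ptp4a1 in both groups were thus on the other side of 1. Toward IgG, after Ccnd2, came Phf3 (29.3 and 3.12 FPKM, ratio 0.106), a regulator of RNA polymerase II. Phf3 had ratios of 6.79 in AngII 4 h and 0.832 in AngII 24 h. Selenop, the selenium carrier of plasma, was at 647 FPKM in IgG and 252 in anti-EZH2 (ratio 0.389, interval 0.371 to 0.408). Its series-wide ratio was 0.556, and in AngII 4 h and 24 h its ratios were 3.23 and 2.37, on the other side of 1. Gpx4, which reduces lipid peroxides, was at 931 and 425 FPKM (ratio 0.456), with a series-wide ratio of 1.09. Selenon was at 60.0 and 13.3 FPKM (ratio 0.221), with ratios of 0.689 in the series-wide table, 1.77 in AngII 4 h and 0.259 in AngII 24 h. In the series-wide table the IgG levels were far lower, at 24.9 FPKM for Selenop, 50.5 for Gpx4 and 0.561 for Selenon. The others were Lamb2 (0.365), Igf2r (0.464), Gnai2 (0.435), Sdha (0.486), Hadha (0.4996) and the ribosomal protein genes Rpl13a (0.336) and Rpl18 (0.423). Rpl13a hosts several small nucleolar RNAs in its introns, and its series-wide ratio was 7.01, on the other side of 1.

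The most abundant mRNAs were close to equal in both libraries. Lars2, the mitochondrial leucyl-tRNA synthetase, was listed at 8445 FPKM in IgG and 10084 in anti-EZH2, a ratio of 1.19. Whether all reads counted for Lars2 came from its mRNA cannot be told from FPKM and was not tested. mt-Co1, a subunit of cytochrome c oxidase, was at 5276 and 5157 FPKM, and Myl2, the ventricular myosin light chain, at 3045 and 2122. Of the 10 highest, only mt-Atp8 came near 2-fold, with 1517 and 3012 FPKM (ratio 1.99, interval 1.77 to 2.23), and it shares bases with mt-Atp6. The other 6, mt-Co2, mt-Co3, mt-Cytb, mt-Nd1, mt-Nd4l and mt-Atp6, had ratios between 0.879 and 1.23. None of the 13 mitochondrially encoded mRNAs was called, and their median log2 ratio was 0.04, above the −0.35 of all genes examined. They had a median of 11481 fragments, and of all genes above 1000 fragments 1.81% were called toward anti-EZH2 and 7.23% toward IgG. The list stood 0.39 above all genes in Sham, −0.15 from them in AngII 4 h and 0.15 above in AngII 24 h. In the series-wide table it was 0.20 above, from only 3 of the 13. Over all 13, summed FPKM was 22575 in IgG and 24124 in anti-EZH2, whereas over nuclear protein-coding genes it was 78899 and 65928.

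mRNAs of the contractile apparatus followed the median. None of the 33 sarcomere and Z-disc genes was called either way, with log2 ratios between −0.90 and 0.37 and a median of −0.31. Their median was 1382 fragments, and of all genes above 1000 fragments 1.81% were called toward anti-EZH2 and 7.23% toward IgG. Tpm1 (tropomyosin) was at 1003 FPKM in IgG and 817 in anti-EZH2, and Actc1 (cardiac actin) at 761 and 602. Of 26 genes of calcium handling and ion channels, 0 were called toward anti-EZH2 and 3 toward IgG (11.5%, against 19.9% of all genes), with a median of 472 fragments. Atp2a2, the calcium pump of the sarcoplasmic reticulum, was at 388 and 292 FPKM, and the 3 were Camk2d (0.485), Kcnip2 (0.385) and Kcnh2 (0.213). Of 8 hypertrophy genes, Rcan1, a target and inhibitor of calcineurin, was called toward IgG (5.99 and 1.49 FPKM), and Ankrd1, Acta1, Myh7 and Nppb had ratios between 0.630 and 0.949.

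mRNAs of energy metabolism and of the ribosome lay close to the median as well. Of 80 nuclear subunits of oxidative phosphorylation 0 were called toward anti-EZH2 and 5 toward IgG, among them Sdha (114 and 55.2 FPKM), Ndufb5 (88.6 and 42.7) and Ndufa9 (35.9 and 15.8), and the list's median was −0.41. Of 83 cytosolic ribosomal protein genes 0 were called toward anti-EZH2 and 7 toward IgG, with a median of −0.46. Of 77 mitochondrial ribosomal protein genes 3 and 11 were called, with a median of −0.39. Glycolysis and the citric acid cycle (33 genes) had 0 and 1, the latter Hk1 (9.05 and 3.90 FPKM). These lists held shares of calls toward anti-EZH2 at or below the 8.84% of all genes. Toward IgG the shares were 6.25%, 8.43%, 14.3% and 3.03%, against 19.9%. The lists had medians of 541, 231, 51.8 and 514 fragments, against 74.1 for all genes, and calls grew fewer above 200 fragments. Of all genes of 500 to 1000 fragments, 6.19% were called toward anti-EZH2 and 11.5% toward IgG. The part of depth in these shares was not tested.

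Fatty acid oxidation, the main fuel pathway of the heart, had 28 genes examined, with 3 called toward IgG (10.7%, against 19.9% of all genes) and 1 toward anti-EZH2 (3.57%, against 8.84%), and a median of −0.33. They had a median of 438 fragments, and of all genes of 200 to 500 fragments 17.5% and 9.58% were called. The 3 toward IgG were Hadha (89.9 and 44.9 FPKM) and Eci2 (15.03 and 7.20), enzymes of beta-oxidation, and Acsl1 (39.6 and 16.0), which activates fatty acids. The gene called toward anti-EZH2 was Ppara, the nuclear receptor that drives transcription of this pathway, at 3.10 FPKM in IgG and 9.66 in anti-EZH2, a ratio of 3.11 with an interval from 2.23 to 4.47.

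**Figure D3:**
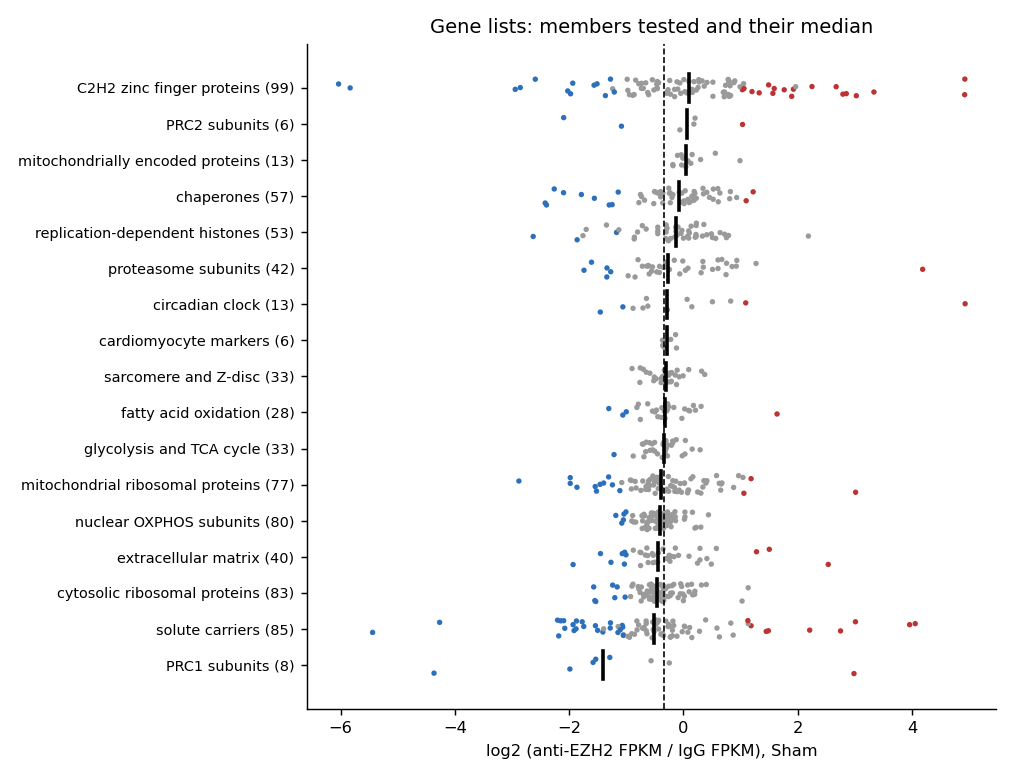
Each row is a gene list with the number of genes examined, each point a gene at its log2 ratio of anti-EZH2 to IgG FPKM in Sham, and each black bar the list median. Red points were called toward anti-EZH2 and blue points toward IgG, and the dashed line is the median of all genes examined, −0.35. The sarcomere list is compact around −0.31, the zinc finger list reaches from −6.04 to 4.93 around 0.10, and the PRC1 list lies at −1.41.

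The mRNA of EZH2 itself was scarce. Ezh2 was at 1.67 FPKM in IgG and 0.266 in anti-EZH2, and its mean was just under the minimum of 1 FPKM. Eed was lower still (0.372 and 0.694 FPKM, from 10.4 fragments), and Ezh1, the paralog known from non-dividing cells, was at 1.49 and 1.69 FPKM. Suz12 was at 4.81 and 1.12 FPKM (ratio 0.234, interval 0.147 to 0.367), but its series-wide ratio was 1.19, so its side depended on the table. Of 6 PRC2 subunits examined Jarid2 was called toward anti-EZH2 (1.96 and 4.01 FPKM) and Suz12 and Aebp2 (3.70 and 1.75) toward IgG. These are 16.7% and 33.3%, against 8.84% and 19.9% of all genes. For PRC1, the partner complex that ubiquitinates histone H2A, 8 of 19 subunits were examined and 5 were called toward IgG (62.5%, against 19.9% of all genes). These were Bmi1 (7.73 and 2.58 FPKM), Pcgf5 (3.93 and 1.354), Phc2 (3.06 and 1.253), Cbx7 (2.73 and 0.688) and Kdm2b (2.17 and 0.105). Pcgf3 went the other way, with 0.585 and 4.63 FPKM (ratio 7.92, interval 4.96 to 13.5). The PRC1 median, −1.41, lay −1.07 from that of all genes, and −0.08 from it when the 17 subunits above 0 in both libraries were taken. The distance was −0.55 in the series-wide table, −0.06 in AngII 4 h and −0.31 in AngII 24 h. Of 42 chromatin remodellers and methyltransferases, a list that also holds Kdm2b, 4 were called toward anti-EZH2 (9.52%, against 8.84% of all genes). Toward IgG 12 were called (28.6%, against 19.9%), and the list's median was −0.39.

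C2H2 zinc finger proteins, the largest class of transcription factors of mammals, stood on the anti-EZH2 side of the median. Of 464 genes listed by symbol, 99 were examined, with 20 called toward anti-EZH2 (20.2%) and 13 toward IgG (13.1%), against 8.84% and 19.9% of all genes. Their median log2 ratio was 0.10, which is 0.44 above that of all genes, and in the series-wide table they were 0.33 above. The 2 most abundant were not called, Zfp106 at 38.7 and 25.1 FPKM and Zbtb20 at 10.6 and 10.8. Zfp970 was at 2.73 FPKM in IgG and 17.4 in anti-EZH2 (ratio 6.38, interval 3.83 to 11.6), Zfp87 at 0 and 2.67 and Zfp729b at 0 and 2.12. Most zinc finger mRNAs were of low level, and 15 of the 20 called toward anti-EZH2 were below 1 FPKM in IgG, so that they passed the minimum only through the library in which they were high. With more than 1 FPKM asked of both libraries, 65 zinc finger genes were left, with 5 calls toward anti-EZH2 (7.69%, against 5.21% of all genes) and a median 0.23 above that of all genes. With the minimum set on the 4 AngII libraries in place of Sham, a choice made after seeing the data, 14 of 91 were called toward anti-EZH2 (15.4%, against 8.21%) and the median was 0.24 above.

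In many of these proteins the fingers are joined by a short conserved linker of 15 coding bases, which the mRNA can repeat with each finger. Exact copies of this linker (the canonical C2H2 linker, by its name) were counted in the translated coding sequence of the main GENCODE M21 transcript of each gene, in its annotated frame. This count was made after the list above had been seen. The first copy is shown for Zfp950, which was called toward anti-EZH2 in all 3 groups, and for Gm14295 and Zfp523, which were among the 10 ranked highest and the 10 ranked lowest above, with the linker in capitals.
Zfp950: attcatACTGGAGAGAAACCCtatgga
Gm14295: acacatACAGGAGAGAAACCCtatgac
Zfp523: actcacACGGGTGAGAAACCAtacaag
All lie in coding exons of GRCm38, at chr19:61120332-61120358 (minus strand), chr2:176809088-176809114 (plus) and chr17:28201034-28201060 (plus). The coding sequences held 16, 15 and 2 copies.

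Genes whose coding sequence repeats the linker had a higher median than the list chosen by symbol. Of the 6506 genes, 48 (0.738%) held 3 or more copies and 42 (0.646%) held 1 or 2. Among the 48, 16 were called toward anti-EZH2 (33.3%, against 8.84% of all genes) and 4 toward IgG (8.33%, against 19.9%). The median log2 ratio of the 48 was 0.80, which is 1.14 above that of all genes. Of the 16, 14 were below 1 FPKM in IgG and so passed the minimum only through anti-EZH2. With more than 1 FPKM asked of both libraries, 25 genes were left, with a median 0.81 above that of all genes. Of the 25, 2 were called toward anti-EZH2 (8%, against 5.21% of all genes) and 1 toward IgG (4%, against 14.2%). With the minimum set on the 4 AngII libraries, 8 of 39 were called toward anti-EZH2 (20.5%, against 8.21%) and 2 toward IgG (5.13%, against 17.9%). The median was 1.03 above. The 42 genes with 1 or 2 copies had a median of −0.46, and the 61 genes of the symbol list with fewer than 3 copies a median of −0.24. The distance of the 48 was 1.00 in the series-wide table, 0.25 in AngII 4 h and 0.37 in AngII 24 h. Among the 48 were Zfp26 (0.428 and 3.49 FPKM), Zfp386 (0.263 and 1.82), 2610044O15Rik8 (0.662 and 6.23) and Gm14403 (0.535 and 3.72), and on the other side Zfp141 (2.79 and 0.363) and Zfp715 (3.21 and 0.837). Of the 10 without a zinc finger symbol 6 were called toward anti-EZH2 (60%, against 8.84% of all genes) and 0 toward IgG (against 19.9%) in Sham. All 6 had less than 1 FPKM in IgG, and in AngII 24 h the median of the 10 was −0.94 from that of all genes. Genes of these clusters are near-identical copies of each other, reads could be split between them by the counting program, and the 48 had a median of 51.5 fragments, so single members are uncertain. The part of shared reads in the median was not tested.

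Histone mRNAs made in S phase end in a stem-loop instead of a poly(A) tail. Its form, a perfect stem of 6 base pairs that opens with GG around a loop of 4 bases that opens with TTT, was found on the coding strand in 36 of the 53 histone genes examined and in 0.301% of the 21951 main protein-coding transcripts. The stem-loop of the 3 most abundant such mRNAs is given, with stem and loop in capitals, because it marks them as replication-dependent.
Hist1h4d: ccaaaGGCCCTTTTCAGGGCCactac
Hist1h4h: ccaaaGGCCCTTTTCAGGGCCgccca
Hist1h4c: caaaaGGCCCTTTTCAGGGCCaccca
They lie in 3′ UTRs at chr13:23581945-23581970 (plus strand), chr13:23531453-23531478 (plus) and chr13:23698084-23698109 (minus). Hist1h4d was at 34.2 FPKM in IgG and 18.8 in anti-EZH2, Hist1h4h at 18.8 and 17.2, and Hist1h4c at 17.5 and 14.1, and none of the 3 was called. All encode histone H4 in near-identical copies, so that reads may be shared. Of the 53 genes, which had a median of 10.2 fragments, 0 were called toward anti-EZH2 and 4 (7.55%) toward IgG. Of all genes of up to 25 fragments, 4.77% and 14.9% were called. The histone median was 0.22 above that of all genes in the separate tables, 0.87 above in the series-wide table and, in AngII 24 h, −0.56 from it.

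Other lists were spread around the median without a common side. Shares of calls are given toward anti-EZH2 and then toward IgG, and over all genes they were 8.84% and 19.9%. RNA-processing genes went both ways. Among 28 hnRNP and SR protein genes Hnrnph1 (7.33 and 23.0 FPKM) and Srsf10 (1.79 and 4.56) were called toward anti-EZH2 and 3 genes toward IgG (7.14% and 10.7%). Among 35 spliceosomal genes 5 and 9 were called (14.3% and 25.7%). Of 54 translation factors 2 and 9 were called (3.70% and 16.7%), with Eef2k, the kinase that halts elongation, at 3.04 and 17.3 FPKM (ratio 5.68, interval 4.53 to 7.24). Of 42 proteasome subunits Psmd5 (0.216 and 3.94 FPKM) and Psmg4 (0 and 5.81) were called toward anti-EZH2 and 5 toward IgG (4.76% and 11.9%). Chaperones (57 genes) had 2 and 9 calls (3.51% and 15.8%) and a median of −0.07. Ubiquitin ligases and adaptors (125 genes) had 12 and 26 calls (9.6% and 20.8%), close to the shares over all genes. Rab and Arf GTPases (48) had 2 and 7 (4.17% and 14.6%), and coats of the secretory pathway (39) had 1 and 9 (2.56% and 23.1%). The medians of these lists were −0.34, −0.36 and −0.32.

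Transporters, matrix and regulators gave the same picture. Of 85 solute carriers 9 were called toward anti-EZH2 (10.6%, against 8.84% of all genes) and 23 toward IgG (27.1%, against 19.9%), with a median of −0.52. Slc5a3, the myo-inositol carrier, was at 0.152 and 2.54 FPKM and Slc15a4 at 8.02 and 0.416. Of 40 extracellular matrix genes 3 and 7 were called (7.5% and 17.5%), among them Col5a2 (2.52 and 7.13 FPKM) and Mmp14 (0.420 and 2.43) toward anti-EZH2 and Lamb2 (31.6 and 11.5) toward IgG. Of the 190 developmental regulators, many of them classic Polycomb targets on chromatin, 113 were at 0 in both libraries and 22 were examined. Among these Tbx15 (0 and 2.65 FPKM) and 1 other were called toward anti-EZH2 (9.09%), and 6 toward IgG (27.3%), among them Foxo3 (8.13 and 2.40) and the cardiac factor Nkx2-5 (5.94 and 2.52). Of 13 clock genes Per2 and Per1 (2.24 and 4.77) were called toward anti-EZH2 and Rora and Bhlhe41 toward IgG (15.4% each way), around a median of −0.28. Of 12 immediate early genes 0 and 2 were called (16.7% toward IgG), Klf4 (5.67 and 1.99) and Zfp36 (3.78 and 1.32).

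Most markers of cell types were near the median. None of the 6 cardiomyocyte, 6 endothelial, 3 smooth muscle, 4 erythroid or 3 atrial markers examined was called, and their medians lay between −0.53 (atrial) and −0.25 (smooth muscle). Of 6 fibroblast markers Pdgfra (2.87 and 0.773 FPKM) was called toward IgG, and of 5 leukocyte markers Ptprc (0.314 and 1.73) toward anti-EZH2. Adipocyte markers were absent or nearly so, with 0 of 5 examined. Of 1049 olfactory receptor genes 1036 were at 0 in both libraries, and the 1 examined was Olfr613 (0.197 and 2.21 FPKM).

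Genes were also grouped by the letters that open their symbol, which gave 37 families of at least 15 genes. The highest medians belonged to Gm (0.15, 86 genes), a placeholder for predicted genes and no family in biology, and to Zfp (0.06, 79 genes). Then came Usp, the ubiquitin-specific proteases (0.05, 28 genes), Trim (−0.03, 17 genes) and Snx, the sorting nexins (−0.08, 15 genes). Usp genes had 6 calls toward anti-EZH2 (21.4%, against 8.84% of all genes) and 2 toward IgG (7.14%, against 19.9%), with Usp16 at 2.38 and 7.45 FPKM, Usp20 at 0.916 and 5.25, and Usp9x at 2.38 and 4.97. Their median was 0.39 above that of all genes in Sham, 0.30 above in AngII 24 h and −0.18 from it in AngII 4 h. Trim63 and Trim54, ubiquitin ligases of the sarcomere, were near equal at 10.0 and 9.66 FPKM and at 11.5 and 11.3.

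The lowest medians were those of Ttc, the tetratricopeptide repeat proteins (−1.06, 16 genes), and Ddx, the DEAD-box RNA helicases (−0.80, 21 genes). They were followed by Polr, the subunits of RNA polymerases (−0.62, 18 genes), Ccdc (−0.52, 29 genes) and Slc (−0.52, 85 genes). Ttc genes had 8 calls toward IgG (50%, against 19.9% of all genes) and 1 toward anti-EZH2 (6.25%, against 8.84%), with Ttc3 at 9.85 and 4.71 FPKM and Ttc4 at 4.496 and 0.366. Ddx genes had 8 calls toward IgG (38.1%, against 19.9% of all genes) and 1 toward anti-EZH2, with Ddx5 at 27.5 and 13.6 FPKM, Ddx3x at 10.2 and 4.19, and Ddx49 at 5.01 and 0.883. Both families were also low in the series-wide table, at −0.66 and −0.52 from the median of all genes. In AngII 24 h they parted, with Ttc at −0.53 and Ddx at 0.17, and in AngII 4 h both were within 0.07 of it.

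Features of the transcript had correlations with the ratio near 0. Across the 6441 genes above 0 in both libraries, Spearman's rho with the log2 ratio was −0.06 for GC content and −0.06 for the density of GGG, the letters of G-rich stretches. In the series-wide table it was 0.03 and 0.01. It was 0.04 for transcript length, 0.04 for coding length, 0.01 for 3′ UTR length, −0.02 for the number of exons and −0.04 for mean FPKM. These are correlations across genes of 2 libraries, and genes are not independent replicates.

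The ratio of a gene in Sham said little of its ratio in the AngII groups. Across 6381 genes, Spearman's rho between the Sham and AngII 4 h log2 ratios was 0.02 and Pearson's r 0.03, and across 6264 genes they were 0.03 and 0.03 for Sham and AngII 24 h. Among 392 genes above 500 fragments in Sham, rho was 0.06 and 0.10. Between the separate and the series-wide tables of the same Sham libraries rho was 0.87 across 6134 genes, and 0.74 across the 369 of them above 500 fragments. In AngII 4 h, 8.35% of the 6506 genes were called toward anti-EZH2 and 11.1% toward IgG, and in AngII 24 h 5.56% and 26.8%. Of the 575 genes called toward anti-EZH2 in Sham, 18.6% were called toward anti-EZH2 and 16.9% toward IgG in AngII 4 h, so that both shares were above those of all genes. In AngII 24 h the shares were 16.0% and 29.0%. Of the 1293 genes called toward IgG in Sham, 16.0% were called toward IgG and 12.4% toward anti-EZH2 in AngII 4 h, and 30.7% and 6.88% in AngII 24 h.

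**Figure D4:**
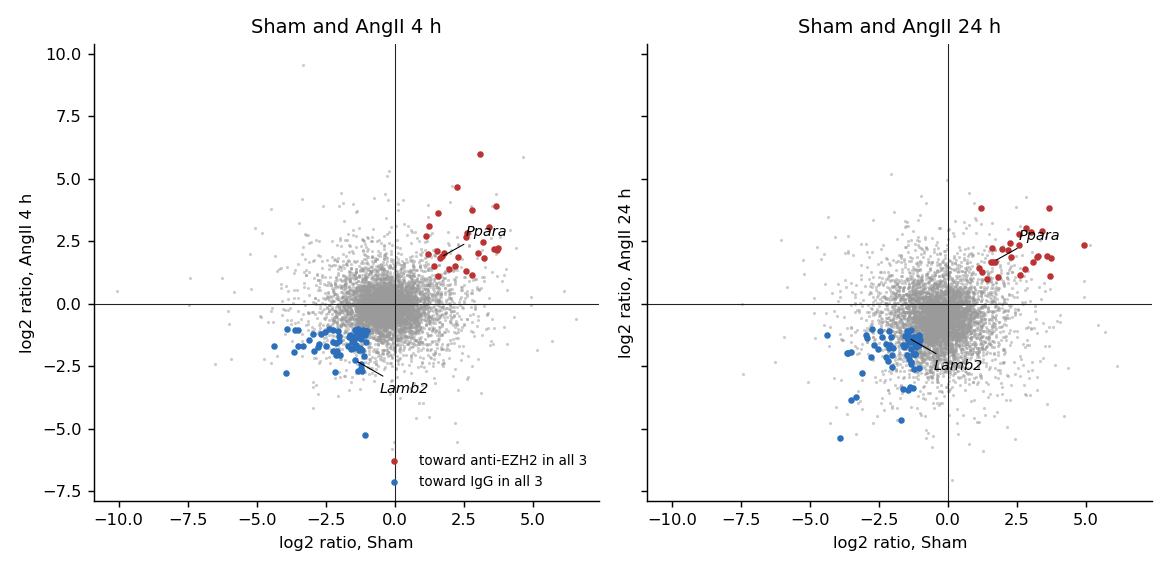
The horizontal axes give the log2 ratio of anti-EZH2 to IgG FPKM in Sham and the vertical axes the same ratio in AngII 4 h (left) and AngII 24 h (right), 1 grey point a gene. Red points are the genes called toward anti-EZH2 in all 3 groups and blue points those called toward IgG in all 3, with Ppara and Lamb2 named. The grey clouds are round, with rho of 0.02 and 0.03.

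A call toward anti-EZH2 was met in all 3 groups for 30 genes, which are 0.461% of the genes examined and 5.22% of the Sham calls. A call toward IgG was met in all 3 for 67 genes, or 1.03% and 5.18%. These 2 shares of Sham calls have unlike baselines. Over all genes, calls toward anti-EZH2 were 8.35% in AngII 4 h and 5.56% in AngII 24 h, and calls toward IgG 11.1% and 26.8%. Whether the 30 or the 67 exceed what these shares would give was not tested. In the series-wide table, 25 of 28 and 41 of 64 of them with a Sham ratio were past 2-fold on the same side. The genes named here were chosen after their values were seen. Among the 30, Ppara (chr15:85734983-85802819, plus strand, 8 exons) had the most even ratios, 3.11 in Sham, 3.60 in AngII 4 h (2.40 and 8.65 FPKM) and 3.21 in AngII 24 h (2.26 and 7.26). Atp2b4, a calcium pump of the plasma membrane, was at 2.11 and 6.86 FPKM in Sham, with ratios of 3.25, 3.80 and 3.17. Every IgG value of Atp2b4 was below every anti-EZH2 value, and the gene hosts Mir6903 on the same strand. Dhtkd1, a mitochondrial dehydrogenase subunit of lysine breakdown, was at 0.516 and 3.61 FPKM in Sham, with ratios of 6.99, 13.4 and 8.16. Fastkd2, which acts on mitochondrial RNA, was at 1.65 and 6.36 FPKM, with ratios of 3.85, 2.63 and 4.60. Others of the 30 were Mepce, which caps the 7SK RNA, Meaf6, a subunit of histone acetyltransferase complexes, Brca2, Mark2, Zfp386, Zfp950, Rbm12b1 and Rbm12b2. Of the 30, 6 had placeholder names, Gm17428 and Gm20594 among them, and 4 shared exons with another gene.

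Of the 67 on the IgG side in all 3 groups, a few are given. Rab11a, a GTPase of recycling endosomes, had ratios of 0.420, 0.398 and 0.395, the most even of the 67. Its Sham ratio in the series-wide table was far lower, 0.0194 (394 and 7.64 FPKM). Rab11a also shares exons with the small RNA Gm47308 on the same strand. Lamb2, a laminin chain of basement membranes, was at 31.6 FPKM in IgG and 11.5 in anti-EZH2 in Sham (ratio 0.365, interval 0.321 to 0.414), and its ratio was 0.210 in AngII 4 h and 0.3918 in AngII 24 h. Igf2r, the receptor that clears IGF2, was at 28.8 and 13.3 FPKM, with ratios of 0.464, 0.476 and 0.327. Flna, the actin crosslinker filamin A, was at 12.99 and 2.76 FPKM, with ratios of 0.213, 0.482 and 0.327. Sp1, a general transcription factor, was at 6.24 and 0.813 FPKM, with ratios of 0.130, 0.267 and 0.385. In the series-wide table Lamb2 was at 0.545 and Igf2r at 1.26 in Sham, so that the side of Igf2r depended on the table. Of the PRC1 subunits, Pcgf5 (0.345, 0.342 and 0.319) and Kdm2b (0.0485, 0.312 and 0.417) were called toward IgG in all 3 groups. Slbp, the protein that binds the histone stem-loop, was at 4.53 and 1.03 FPKM in Sham and had ratios of 0.226, 0.239 and 0.468.

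**Figure D5:**
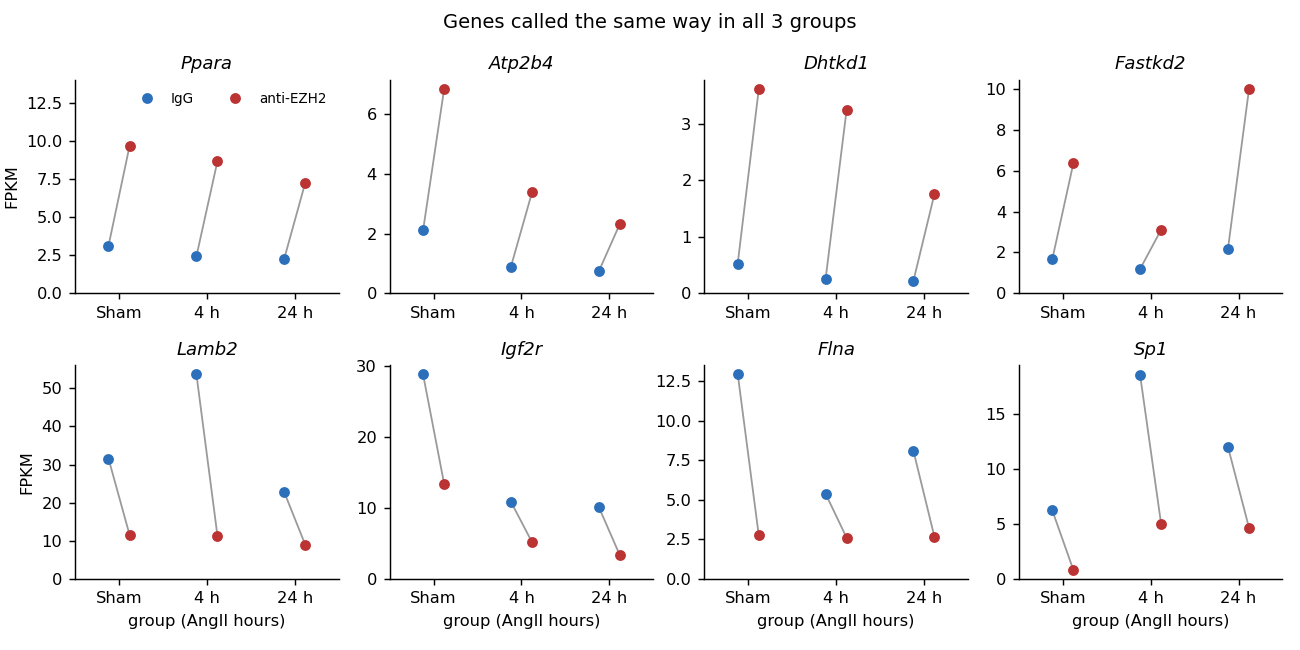
FPKM of 8 genes called the same way in all 3 groups, with IgG in blue and anti-EZH2 in red, joined within a group, in Sham, AngII 4 h and AngII 24 h, 1 library a point. For Ppara the IgG values lie between 2.26 and 3.10 FPKM and the anti-EZH2 values between 7.26 and 9.66, and for Lamb2 every IgG value is above every anti-EZH2 value.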

How the data were processed

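RIP-seq libraries of Sham ventricle (1 anti-EZH2, 1 IgG) were grouped by their labels. The authors mapped stranded reads to mm10 with TopHat2 and deposited FPKM, per library with an interval and as a table of the whole series; the program behind the FPKM is not given in the sources used here. The labels give strains C57BL/7 and C57BL/8 for the AngII anti-EZH2 libraries of 4 h and 24 h.

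Of 46072 genes, 45137 matched GENCODE M21. FPKM under 0.001 were set to 0. Fragments were FPKM times effective length of the main transcript (fragments of 200 ± 80 nt, at least 34 nt) divided by the step of low values, and are estimates for genes with several transcripts. Of 1787 (IgG) and 2359 (anti-EZH2) low values, 53.7% and 57.2% were whole to within 0.1, against 20% by chance. Clopper-Pearson 95% intervals were set on ratios. On simulated Sham counts of 6506 genes, 95.0% of 4-fold changes in each direction were called, with 30 and 44 of 6306 unchanged genes. The simulation held counting error only, around equal levels. The measured spread exceeded counting error, so these numbers say nothing of how many calls above are false. With 1 library a side there was no test and no p-value. The members and lists were chosen with earlier results of these data known.

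Named genes were the 10 with the highest lower and the 10 with the lowest upper limit, the 10 most abundant, 4 PRC2 genes and, per list, up to 4 by level or ratio. Scripts ran in Python 3.11.15 (scipy 1.17.1 for intervals, pandas 2.3.3 and numpy 2.4.6 for tables, matplotlib 3.10.9 for plots).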

Additional observations from a re-analysis of the deposited data

Results flagged for a closer look

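Of the 20 mRNAs ranked highest and lowest by the interval of their Sham ratio, 11 were called on the opposite side in at least 1 AngII group. Of all genes called toward anti-EZH2 in Sham, 16.9% were called toward IgG in AngII 4 h and 29.0% in AngII 24 h. Over all genes examined these shares were 11.1% and 26.8%. Of all genes called toward IgG in Sham, 12.4% and 6.88% were called toward anti-EZH2, against 8.35% and 5.56% of all genes. The share on the opposite side in at least 1 group was not counted over all calls. The difference between groups was not tested, and each value comes from 1 library a side. Of the 11, those toward anti-EZH2 in Sham included Samd12, with 1.27 FPKM in IgG and 0 in anti-EZH2 in AngII 24 h (ratio 0). In that group Arntl2 had 0.588 and 0 (ratio 0), Ctps2 6.99 and 1.26 (ratio 0.180) and Swt1 1.98 and 0.144 (ratio 0.0728). In AngII 4 h, Prss36 had 11.5 FPKM in IgG and 0 in anti-EZH2 (ratio 0), and Gm14295 had 22.2 and 7.95 (ratio 0.359). Of those toward IgG in Sham, Zfp523 had a ratio of 5.86 and Pnrc2 of 4.89 in AngII 24 h. In AngII 4 h Frmd4a had a ratio of 8.15 and Ift140 of 2.06. Lbhd1 had a ratio of 15.3 in AngII 4 h and of 13.4 in AngII 24 h. Some of the 11 were called on the same side as in Sham in the other AngII group. In AngII 4 h these were Samd12 (0 and 0.812 FPKM, lower limit 9.84), Swt1 (ratio 8.50) and Pnrc2 (0.214). In AngII 24 h they were Frmd4a (0.116) and Ift140 (0.201).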

How the results depend on the processing

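No paired analysis was possible because the Sham comparison held 1 library for each antibody, and the other 2 pairs of the series were of AngII mice. Both directions of the main counts (664 toward anti-EZH2 and 1432 toward IgG past 2-fold, 575 and 1293 with counting error) were recomputed. With a pseudocount of 1 FPKM they were 375 and 797, and 354 and 781 with counting error. Without an FPKM minimum they were 1622 and 2598, and 898 toward anti-EZH2 with counting error. From a mean of 5 FPKM they were 99 and 284, and 95 and 279, and with more than 1 FPKM in both libraries 304 and 778, and 268 and 729, on fewer genes. Past 4-fold they were 243 and 393, and 229 and 386. Past 2-fold there were 531 and 524 of 4163 genes in the series-wide table, 475 and 882 with at least 50 fragments, 992 and 896 after division by the median ratio (873 and 780 with counting error), and 884 and 1010 with the same nuclear FPKM sum (775 and 896). Where the FPKM intervals of the tables had to be apart there were 63 and 168, and with fragments divided by 4, an alternative chosen after seeing the data, 306 and 658. With the minimum set on the AngII libraries, also chosen after seeing the data, there were 753 and 1446, and 566 and 1231 with counting error. The series-wide table gave no fragments and so no counts with counting error. Of 400 list medians under the alternatives 1 moved by more than 1.5-fold, that of the PRC1 subunits. The histone list stood 0.22 above all genes over the 8 members with a mean of at least 1 FPKM in the series-wide table, and 0.87 above over the 38 of the 53 with a ratio there. Of 113 ratios of genes ranked highest, lowest or most abundant, of PRC2 genes and of called genes above 1000 fragments, 52 left their interval and 4 changed side, all in the series-wide table, those of Suz12 (1.19), Gpx4 (1.09), Igf2r (1.26) and Rpl13a (7.01). Of the called genes with a series-wide ratio, 471 of 546 toward anti-EZH2 and 756 of 1244 toward IgG were past 2-fold there. With 1 library a side, depth limited scarce mRNAs most, and variation between mice was not measured.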
